A study of Rattus norvegicus with 23 samples.

Results

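The Rbm, Srsf and Hnrnp genes encode 3 sets of RNA-binding proteins, many of them nuclear and acting on pre-mRNA. They were taken as every protein-coding gene in the table whose symbol starts with Rbm or Srsf followed by a digit, or with Hnrnp, which gave 66 of 19249 genes. The 66 were 36 Rbm genes, 11 Srsf genes and 19 Hnrnp genes. Of these, 64 had a mean normalized count of at least 10 over the libraries and were tested. The other two were Rbm11 and Rbm44, whose group means were 0.402 to 2.18 and 2.50 to 4.26 normalized counts, respectively.

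Srsf genes encode the SR proteins, which bind exonic enhancers through RNA recognition motifs and recruit the spliceosome through a domain rich in arginine and serine. Hnrnp genes encode the abundant proteins that coat nascent transcripts, and many of them silence exons in competition with SR proteins. The Rbm symbols cover a looser set, named only for an RNA recognition motif, with roles in splicing, RNA decay, editing and translation. Many SR and hnRNP genes limit their own mRNA through cassette exons that send the transcript to nonsense-mediated decay. Counts per gene, as used here, do not separate those isoforms.

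Whole lung RNA was measured in male rats exposed to eucalyptus wood smoke at a low or a high level, set by carbon monoxide targets of 10 ppm and 20 ppm, or to filtered air. Exposure took place on 4 days of the first week and, after 3 days without it, on 3 days of the next. Of 24 randomized rats, 7 air, 8 low smoke and 7 high smoke libraries were analysed, each from 1 rat, and both smoke groups were compared with the same air libraries. A high smoke sample marked in its label as dropped for quality was not analysed here. All values are counts that the authors had normalized for library size.

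Each library held 8484160 to 12055500 read equivalents. Surfactant and other type 2 cell markers, summed over 6 genes, reached 140924 to 252294 normalized counts in every library, as the lung label calls for. High smoke replicates 1, 3 and 7 scored 51.5, 41.7 and 36.5 on the first principal component, and the other 4 high smoke libraries scored 0.30 to 8.77. Air replicate 3 scored 44.6 on the second component, where no other library exceeded 16.0. Results are therefore also given without high smoke replicates 1, 3 and 7, an alternative added after the values were seen. In bulk tissue, fewer cells of a type and less RNA per cell cannot be told apart.

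In high smoke against air, 14 of the 64 members tested passed an adjusted p of 0.05 (limma, Benjamini-Hochberg over 14414 genes). That was 21.9% of the members, beside 16.3% of all genes tested. Of the 14, 10 rose, beside 9.21% of all genes rising, and 4 fell, beside 7.05% of all genes falling. The 10 that rose made up 15.6% of the members and the 4 that fell 6.25%. Changes were small, with a median size of 0.44 and a largest size of 0.81 on the log2(value + 1) scale, the scale of every log2 difference given here.

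By family, 5 Hnrnp genes rose, 2 fell and 12 did not pass, and the median log2 difference over the 19 was 0.12. Among the Srsf genes 2 rose, 0 fell and 9 did not pass, with a median of -0.02. In the Rbm set 3 rose, 2 fell and 29 did not pass, with a median of -0.08. The median over all genes tested was -0.002. No family moved as a block: Hnrnp values ran from -0.59 to 0.54, Srsf values from -0.31 to 0.44 and Rbm values from -0.81 to 0.57.

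**Figure D1:**
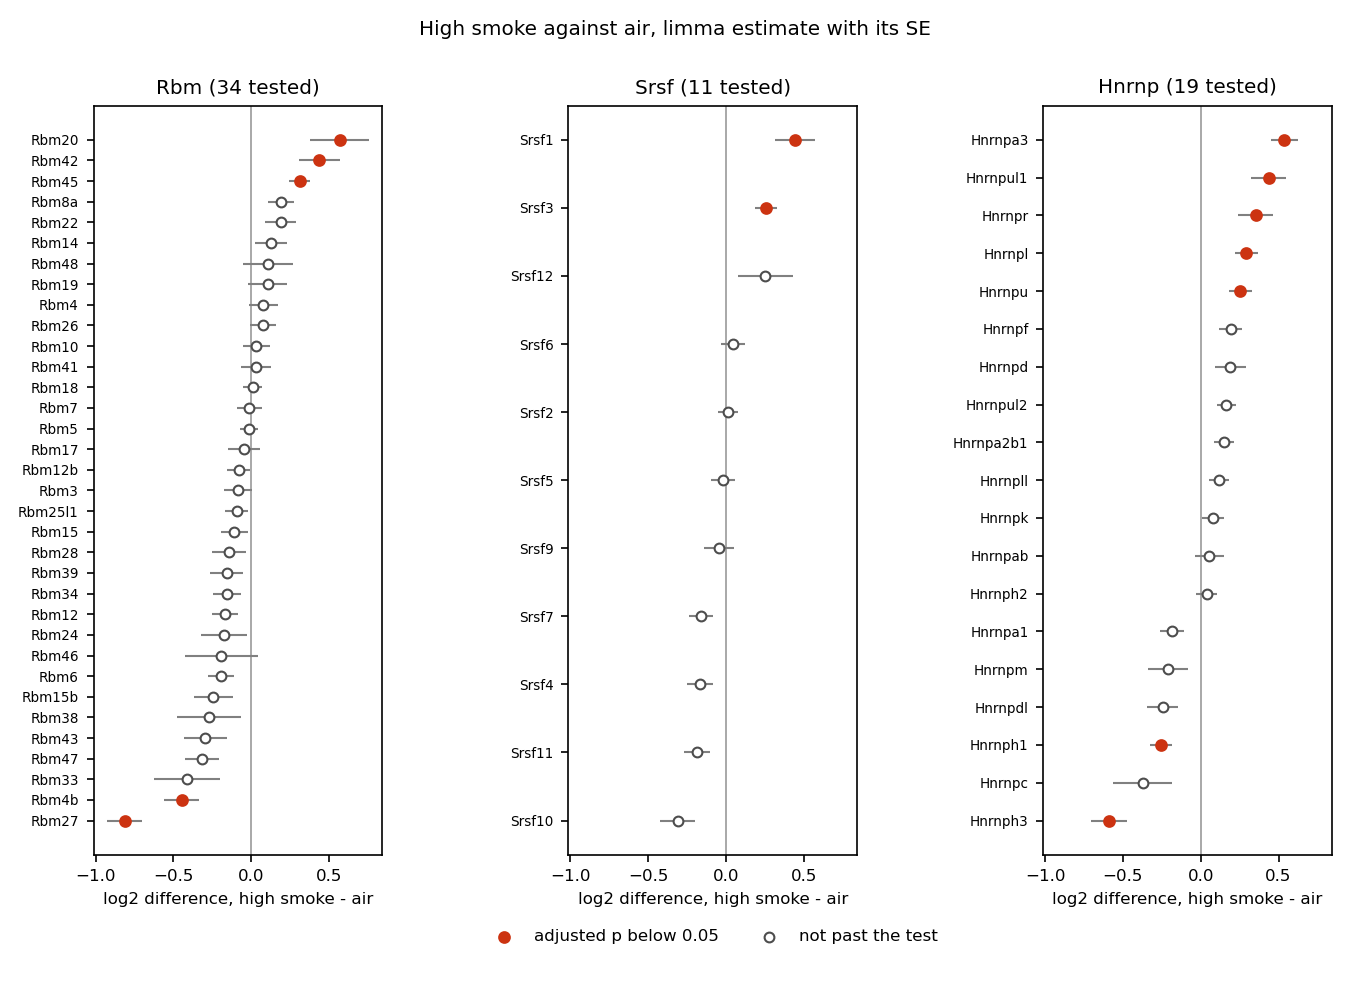
Log2 difference between high smoke and air (x axis, with its SE) for each member tested, ordered by value within the Rbm, Srsf and Hnrnp sets. Filled red points passed an adjusted p of 0.05: 10 lie to the right of 0 and 4 to the left, with Rbm27 at -0.81 farthest from 0.

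Complete separation of the groups was uncommon. In Hnrnpa3 and Rbm45, 3.13% of the members, every high smoke library lay above every air library, beside 1.3% of all genes. For Rbm27, Hnrnph3 and Rbm4b, 4.69% of the members, every high smoke library lay below every air library, beside 0.569% of all genes.

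Among the A/B-type hnRNPs, Hnrnpa3, which binds and packages mRNA and carries it in transport granules, rose most clearly. Its normalized counts were 4328 to 6141 in air (median 4978), 5406 to 6406 in low smoke (median 6009) and 6323 to 9105 in high smoke (median 7139). The gene lies at chr3:62481323-62487228 on the plus strand of rn6. No high smoke library overlapped air, and the 8 low smoke libraries lay between, overlapping both groups. The mean of 7 high smoke libraries was 7436 ± 1097 and that of 7 air libraries 5115 ± 661, where ± is the SD as for all means here, and the 8 low smoke libraries averaged 5961 ± 346. The log2 difference between high smoke and air was 0.54 ± 0.09 (SE), with an adjusted p of 0.000429. Hnrnpa1, its relative that represses exons and often opposes Srsf1, did not pass, at 2358 ± 269 in air and 2069 ± 179 in high smoke, with a log2 difference of -0.18 and an adjusted p of 0.103. Hnrnpa2b1, which also sorts small RNAs into vesicles, was at 2753 ± 169 in air and 3068 ± 325 in high smoke, with an adjusted p of 0.110.

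The U-type proteins tether RNA to chromatin. Hnrnpul1, an hnRNP U-like protein with a part in DNA repair, rose by a log2 difference of 0.44 ± 0.11 (SE), with an adjusted p of 0.0109. Its high smoke counts ran from 3199 to 5910 (median 3777), against 2801 to 3738 in air (median 2990), so 3 high smoke libraries lay within the air range. Hnrnpu, the scaffold protein of the nuclear matrix, rose by 0.25 ± 0.07, from 7065 ± 488 in air to 8463 ± 1031 in high smoke, with an adjusted p of 0.0177. Hnrnpul2 was at 1812 ± 107 in air and 2033 ± 186 in high smoke, with an adjusted p of 0.067.

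Hnrnpl, which binds CA repeats, rose by a log2 difference of 0.29 ± 0.07, from 2228 ± 253 to 2725 ± 258, with an adjusted p of 0.00999. Hnrnpr, a relative of Syncrip that stabilizes and transports mRNA, rose by 0.35 ± 0.11, with an adjusted p of 0.0331. Its 2 highest libraries, high smoke replicates 1 and 3, reached 4096 and 3922, and the other 5 lay between 2102 and 2870, against 2015 to 2619 in air. Of the values low enough to check, 0 of 3 for Hnrnpl and 0 of 1 for Hnrnpr were whole reads. The levels of these genes may therefore hold shared reads. Hnrnpll, known for switching Ptprc exons in lymphocytes, was at 358 ± 16.5 in air and 389 ± 31.8 in high smoke, with an adjusted p of 0.214. Hnrnpk, which binds C-rich RNA, was at 1815 ± 170.5 and 1916 ± 181, with an adjusted p of 0.499, and Hnrnpc, which binds U tracts, was at 323 ± 95.7 and 248 ± 68.1, with an adjusted p of 0.186.

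Both Hnrnp genes that fell belong to the F/H type, whose proteins bind G tracts. Hnrnph3 counts were 650 to 821 in air (median 689), 501 to 699 in low smoke (median 643) and 349 to 644 in high smoke (median 513). All 7 high smoke libraries lay below all 7 air libraries, and replicates 1, 3 and 7 were the lowest, at 349, 363 and 394. The log2 difference was -0.59 ± 0.12 (SE), with an adjusted p of 0.00187. The gene, at chr20:27169267-27216942 on the plus strand of rn6, overlaps another annotated gene, and all 22 of its values were whole reads. Hnrnph1, the best studied G-tract binder of the type, fell from 3046 ± 291 in air to 2553 ± 265 in high smoke, a log2 difference of -0.26 ± 0.07 with an adjusted p of 0.0154, and 5 of the 7 high smoke libraries lay below all of air. The Hnrnph1 call, like several others named below, ended with the rank-sum test and with only the 2 groups fitted. It also ended without high smoke replicates 1, 3 and 7 (-0.16, adjusted p = 0.344). Their relative Hnrnpf was at 1948 ± 171 and 2229 ± 230, a log2 difference of 0.19 with an adjusted p of 0.0759, and Hnrnph2 was at 442 ± 45.8 and 452 ± 35.0.

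Within the SR proteins, Srsf1, the prototype of the family, rose by a log2 difference of 0.44 ± 0.13 (SE), with an adjusted p of 0.0224. Its counts were 9590 to 16170 in air (median 11316), 10731 to 13382 in low smoke (median 12643) and 11712 to 23023 in high smoke (median 14367). The groups overlapped widely, and only high smoke replicates 1 and 3 lay above all of air. Srsf3, a small SR protein that also adapts mRNA for export, rose by 0.26 ± 0.07, from 4557 ± 491 in air to 5450 ± 578 in high smoke, with an adjusted p of 0.0161. Its low smoke mean of 4542 ± 237 was close to that of air.

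The other Srsf genes did not pass. Srsf10, a repressor that turns into an activator with its phosphorylation state, came nearest on the falling side, at 334 ± 38.4 in air and 274 ± 62.9 in high smoke, a log2 difference of -0.31 with an adjusted p of 0.0594. Srsf7, the closest relative of Srsf3, was at 510 ± 34.9 and 457 ± 44.0, with an adjusted p of 0.163. Srsf2, a marker protein of nuclear speckles, was at 1572 ± 132 and 1585 ± 139, Srsf5 at 877 ± 63.4 and 867 ± 64.0, and Srsf6 at 5604 ± 672 and 5769 ± 603. These 3 log2 differences were 0.01, -0.02 and 0.04, each smaller than its SE of 0.06 to 0.08.

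Rbm27 had the largest fall of all members. It is a zinc-finger protein that, with its relative Rbm26, has been tied in human cells to the decay of polyadenylated nuclear RNA. Counts were 194 to 276 in air (median 255), 189 to 258 in low smoke (median 209) and 102 to 181 in high smoke (median 146). The gene lies at chr18:36596585-36656315 on the plus strand of rn6. Every high smoke library lay below every air library and every low smoke library. The mean fell from 245 ± 30.6 in air to 140.5 ± 28.9 in high smoke, a log2 difference of -0.81 ± 0.11 (SE) with an adjusted p of 0.000198. Rbm26 was at 916 ± 117 and 964 ± 107, a log2 difference of 0.08 with an adjusted p of 0.571.

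Rbm4b, a paralog of Rbm4 that regulates splicing and translation, fell from 119 ± 13.5 in air to 87.9 ± 13.8 in high smoke, a log2 difference of -0.45 ± 0.11 with an adjusted p of 0.0103. Its high smoke counts, 59.4 to 97.8 (median 94.7), all lay below the 103 to 140 of air (median 116). Rbm4b and Rbm4 are close copies on rat chromosome 1, and neither gave a whole number of reads in any library (tolerance 0.02 reads), so how reads were divided between them is uncertain. Rbm47, a cofactor of cytidine editing in epithelia, was at 303 ± 47.7 in air and 244 ± 42.6 in high smoke, a log2 difference of -0.31 with an adjusted p of 0.0502, just outside the threshold.

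On the rising side, Rbm45, an RNA-binding protein found in inclusions in human motor neuron disease, was the most even. Its counts were 150 to 187 in air (median 165), 160 to 197 in low smoke (median 182) and 193 to 221 in high smoke (median 208). No high smoke library overlapped air, and replicates 1, 3 and 7 did not stand apart from the other 4. The log2 difference was 0.31 ± 0.07, with an adjusted p of 0.00391. Rbm42, a partner of Hnrnpk, rose from 67.8 ± 14.9 in air to 90.7 ± 10.2 in high smoke, a log2 difference of 0.44 ± 0.13 with an adjusted p of 0.0264 and 3 of 7 libraries above all of air.

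Rbm20, the splicing repressor of titin in the heart, rose from 32.0 ± 9.56 in air to 46.4 ± 6.87 in high smoke, a log2 difference of 0.57 ± 0.19 with an adjusted p of 0.0423. Rat lung contains heart-type muscle around the pulmonary veins, and the summed count of 8 cardiac markers varied from 122 to 1476 in air, 152 to 1373 in low smoke and 166 to 1276 in high smoke. None of the 8 passed in any comparison, and their part in the Rbm20 result was not tested. Smooth muscle markers also moved with the group: Acta2, Cnn1 and Tagln, 3 of the 5 tested, rose in high smoke. The summed count of all 5 was 11997 to 20783 in air and 15492 to 25224 in high smoke, and their part was not tested. The Rbm20 call also ended when certain single libraries, named below, were left out, and without the filter on low values (adjusted p = 0.0583 with no filter). Rbm24, a muscle splicing factor, was at 108 ± 18.7 in air and 97.5 ± 26.4 in high smoke, with an adjusted p of 0.442.

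Several widely studied Rbm genes differed little. Rbm3, induced by cold, was at 1272 ± 220 in air and 1188 ± 81.2 in high smoke, and Rbm39, a partner of the branch-site recognition machinery, at 3316 ± 493.5 and 2970 ± 399. Rbm5 and Rbm10, related regulators of exon choice in apoptosis genes, had log2 differences of -0.01 ± 0.06 and 0.03 ± 0.09. Rbm25l1 was at 1617 ± 168 and 1511 ± 107. Their adjusted p-values were 0.57 for Rbm3, 0.328 for Rbm39, 0.914 for Rbm5, 0.837 for Rbm10 and 0.411 for Rbm25l1.

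**Figure D2:**
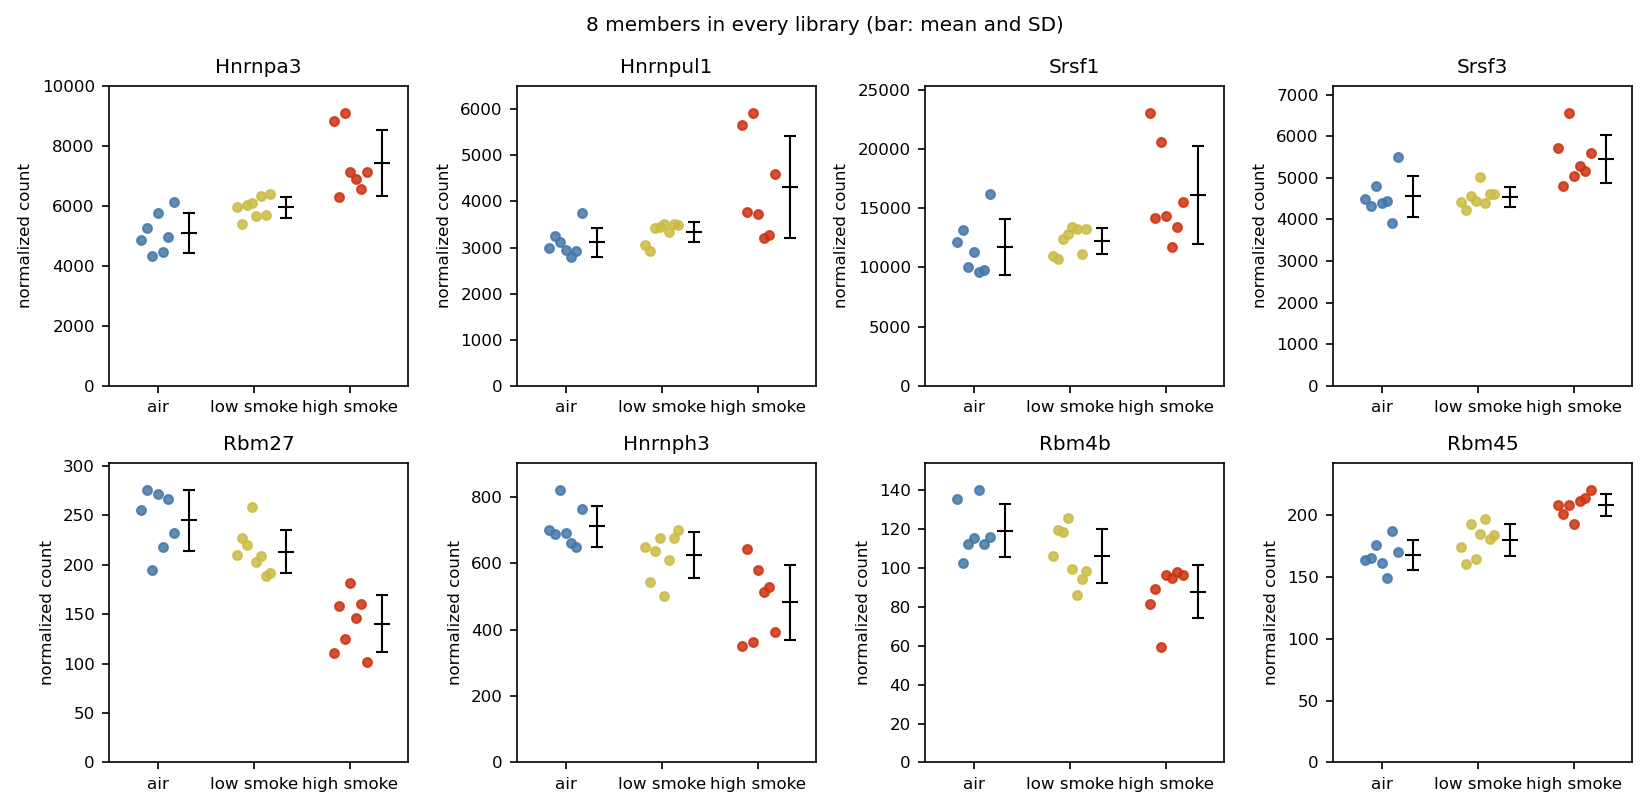
Normalized count (y axis, from 0) in every library for 8 members, in air (n = 7), low smoke (n = 8) and high smoke (n = 7), with bars at the mean and SD. Hnrnpa3 and Rbm45 in high smoke lie above all air points, and Rbm27, Hnrnph3 and Rbm4b lie below all of them.

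Promoter sequence was compared because members of 1 family moved in opposite directions. RefSeq windows in the GRCr8 build, 250 bases before to 50 bases after the start, were matched by symbol for 60 of the 66 members. The 120 bases before the start of 5 called members are shown 5′ to 3′ on the plus strand. Capitals mark matches, on either strand, to 4 motifs. The CCAAT box was searched by the letters of its name and the GC box, a site of Sp-type factors, as GGGCGG. The core bound by ETS factors was searched as CCGGAAG. The TATA box of focused promoters was searched as TATAAA. Hnrnpa3 (chr3:80985814-80985933), Srsf3 (chr20:7093465-7093584) and Rbm45 (chr3:81713094-81713213) rose in high smoke, and Rbm27 (chr18:34524410-34524529) and Hnrnph1 (chr10:35194513-35194632) fell.
Hnrnpa3: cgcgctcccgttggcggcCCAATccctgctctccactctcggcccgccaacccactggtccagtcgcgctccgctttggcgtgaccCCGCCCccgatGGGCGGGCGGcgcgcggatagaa
Srsf3: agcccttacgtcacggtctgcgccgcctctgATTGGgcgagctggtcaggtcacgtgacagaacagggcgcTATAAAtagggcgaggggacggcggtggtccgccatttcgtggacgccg
Rbm45: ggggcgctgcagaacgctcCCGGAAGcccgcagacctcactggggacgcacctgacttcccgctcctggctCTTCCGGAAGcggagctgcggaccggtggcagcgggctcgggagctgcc
Rbm27: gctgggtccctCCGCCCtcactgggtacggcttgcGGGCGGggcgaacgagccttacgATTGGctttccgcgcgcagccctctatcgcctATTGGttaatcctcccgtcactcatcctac
Hnrnph1: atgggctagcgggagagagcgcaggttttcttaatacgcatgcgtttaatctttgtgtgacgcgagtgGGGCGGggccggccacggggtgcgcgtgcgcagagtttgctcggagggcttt
The stretches differ in content. Hnrnpa3 has a CCAAT box 102 bases and GC boxes 34, 23 and 19 bases before the start, the last pair overlapping. Srsf3 pairs a TATA box at 49 bases with a CCAAT box at 89 bases, and Rbm45 has 3 ETS cores at 101, 49 and 46 bases, the last pair overlapping, with no CCAAT or GC box in the stretch. Rbm27, which fell, has CCAAT boxes at 62 and 30 bases and GC boxes at 109 and 85 bases, the same kinds as Hnrnpa3, which rose.

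Over the whole 300-base windows, CCAAT was found in 56.7% of the 60 members, beside 37.5% of the genes tested and 37.5% of all windows. It was in 11 of the 13 called members that have a window, rising and falling alike, with Hnrnph1 and Rbm45 as the exceptions. GGGCGG was found in 60% of members, 61.2% of genes tested and 33.1% of all windows, and CCGGAAG in 20%, 16.8% and 8.75%. TATAAA was found in 11.7%, 6.80% and 14.2% of the same sets. A YY1 core, ATGGCGGC, was found in 11.7%, 5.60% and 2.53%, and GCGCATGC (an NRF1 motif) in 3.33%, 4.87% and 2.47%. The palindrome CTCGCGAG was found in 8.33% of members (Rbm26, Rbm39, Rbm44, Srsf4 and Srsf10), 1.73% of genes tested and 0.723% of all windows. Matches overlapped another motif in 1 of 66 matches for the CCAAT box, 2 of 82 for the GC box, 1 of 14 for the ETS core and 2 of 7 for the YY1 core. A match describes letters only and was not tested for binding.

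In low smoke against air, 0 of the 64 members passed, beside 0% of all genes tested (limma). At an unadjusted p below 0.05 there were 6 of 64 members, 4 of them higher in low smoke. Over all genes it was 923 of 14414 (6.4%), 536 of them higher. The smallest p belonged to Hnrnpd, which targets AU-rich mRNA for decay, at 2176 ± 321 in air and 2752 ± 376 in low smoke, a log2 difference of 0.34 with an adjusted p of 0.495. Hnrnpa2b1 followed, at 2753 ± 169 and 3168 ± 165, where 7 of 8 low smoke libraries lay above all of air, and its adjusted p was 0.524. The other 4 were Hnrnpa1 at -0.21, Hnrnpa3 at 0.23, Rbm34 at -0.24 and Rbm42 at 0.30 on the log2 scale, chosen here for their p. Both smoke comparisons share the air libraries.

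In high smoke against low smoke, 4 of 64 members passed, 6.25%, beside 6.78% of all genes. Rbm27 fell by a log2 difference of -0.62 ± 0.11 and Hnrnph3 by -0.40 ± 0.11, with adjusted p-values of 0.014 and 0.0356. Hnrnpa3 rose by 0.31 ± 0.08 and Srsf3 by 0.26 ± 0.07, with adjusted p-values of 0.0328 and 0.0313. For Rbm27 the groups did not overlap, and for Hnrnpa3 and Srsf3, 6 of 7 high smoke libraries lay above all of low smoke. None of the 4 passed without high smoke replicates 1, 3 and 7, where 0 of all 14394 genes tested rose and 0 fell. The loss is therefore not particular to these members. Rbm27 was then at -0.40, Hnrnph3 at -0.14, Hnrnpa3 at 0.18 and Srsf3 at 0.16, with adjusted p-values of 0.636, 0.809, 0.738 and 0.714. Leaving out 1 library at a time gave 1 to 10 called members, and the calls over all genes swung as well. Without high smoke replicate 7, 1 member was called, beside 21 rising and 8 falling genes of 14414. Without high smoke replicate 6, 10 members were called, beside 859 rising and 716 falling genes of 14412.

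Averaged over the called members, the changes were largest in high smoke replicates 1, 3 and 7, though not for every member: Rbm42 was highest in replicate 5, and Hnrnpu was higher in replicate 6 than in replicates 1 and 7. The mean deviation of the 10 risers from the air mean was 0.60, 0.65 and 0.42 in those libraries and 0.24 to 0.28 in the other 4, on the log2 scale, with air libraries between -0.11 and 0.20. For the 4 fallers it was -0.75, -0.84 and -0.69, against -0.42 to -0.26 in the other 4 and -0.08 to 0.08 in air. All 7 high smoke libraries therefore lay on the side of the call for both sums. These members were chosen by the same libraries, so the deviations are a description.

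Without those 3 libraries, 3 members passed, beside 0.861% of all genes tested. Hnrnpa3 rose by 0.41 with an adjusted p of 0.0251 and Rbm27 fell by 0.59 with an adjusted p of 0.0169. Hnrnpa2b1 passed in addition, at 0.26 with an adjusted p of 0.0416. Rbm45 kept a log2 difference of 0.29 with an adjusted p of 0.0914, and Hnrnpr went to 0.12, Hnrnpul1 to 0.17 and Srsf1 to 0.21. Of the fallers, Hnrnph3 went from -0.59 to -0.33 (adjusted p = 0.0914), Rbm4b from -0.45 to -0.33 (adjusted p = 0.177) and Hnrnph1 from -0.26 to -0.16. The other calls lost were Hnrnpl at 0.22, Hnrnpu at 0.19, Srsf3 at 0.16, Rbm20 at 0.44 and Rbm42 at 0.42. With all libraries, 1327 genes of 14414 rose and 1016 fell. Leaving out replicate 3 alone left 9 called members, beside 886 rising and 575 falling genes. Hnrnpr, Hnrnpu, Rbm20, Rbm42 and Srsf1 lost their calls, with adjusted p-values of 0.0909, 0.0504, 0.0904, 0.0613 and 0.0624. Leaving out high smoke replicate 1 left 11 called members, beside 874 rising and 579 falling genes. It ended the calls for Hnrnpr, Rbm20 and Srsf1 (adjusted p = 0.0899, 0.0836 and 0.0619). Leaving out replicate 7 left 12, beside 947 rising and 603 falling genes. It ended the calls for Hnrnpr and Rbm20 (0.0569 and 0.0824). The Rbm20 call also ended without replicate 2 or 4 (0.0536 and 0.0543). Leaving out an air library also ended calls for Hnrnpr (replicates 4, 5 and 6, adjusted p up to 0.0706), Rbm20 (1, 4 and 5, up to 0.0958), Rbm42 (2 and 4, up to 0.0635) and Srsf1 (6, 0.0509).

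Other measures also differed between libraries. The 46 small nucleolar RNA genes had a mean log2 deviation from air of -1.04 to 0.93 in air libraries and 0.77 to 2.41 in high smoke, with 2.41, 2.15 and 1.95 in replicates 1, 3 and 7. Of 10 mitochondrial transcripts, 4 fell in high smoke, while the sum of the 10 had a median of 130697 in air and 131177 in high smoke, with ranges of 110184 to 148146 and 76140 to 151754. Hbb and Hba-a2, 2 of 3 erythroid markers, rose, and the erythroid sum was 3845 to 5809 in air and 5987 to 13515 in high smoke. Of the alveolar markers, Sftpc, Sftpd, Ager and Hopx rose, 4 of 12, and single markers of fibroblasts (Dcn) and B cells (Cd79a) rose. Single markers of endothelium (Tek), ciliated cells (Dnah5) and macrophages (Cd68) fell, and 0 of 3 airway secretory, 0 of 4 T and NK cell and 0 of 5 dividing cell markers passed. High smoke replicate 1 had the lowest mitochondrial sum and the highest erythroid sum. The type 2 marker sum was highest in high smoke replicates 3, 7 and 1, at 252294, 231927 and 221784. It was at most 203876 in every other library. The part of these measures in the results was not tested.

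**Figure D3:**
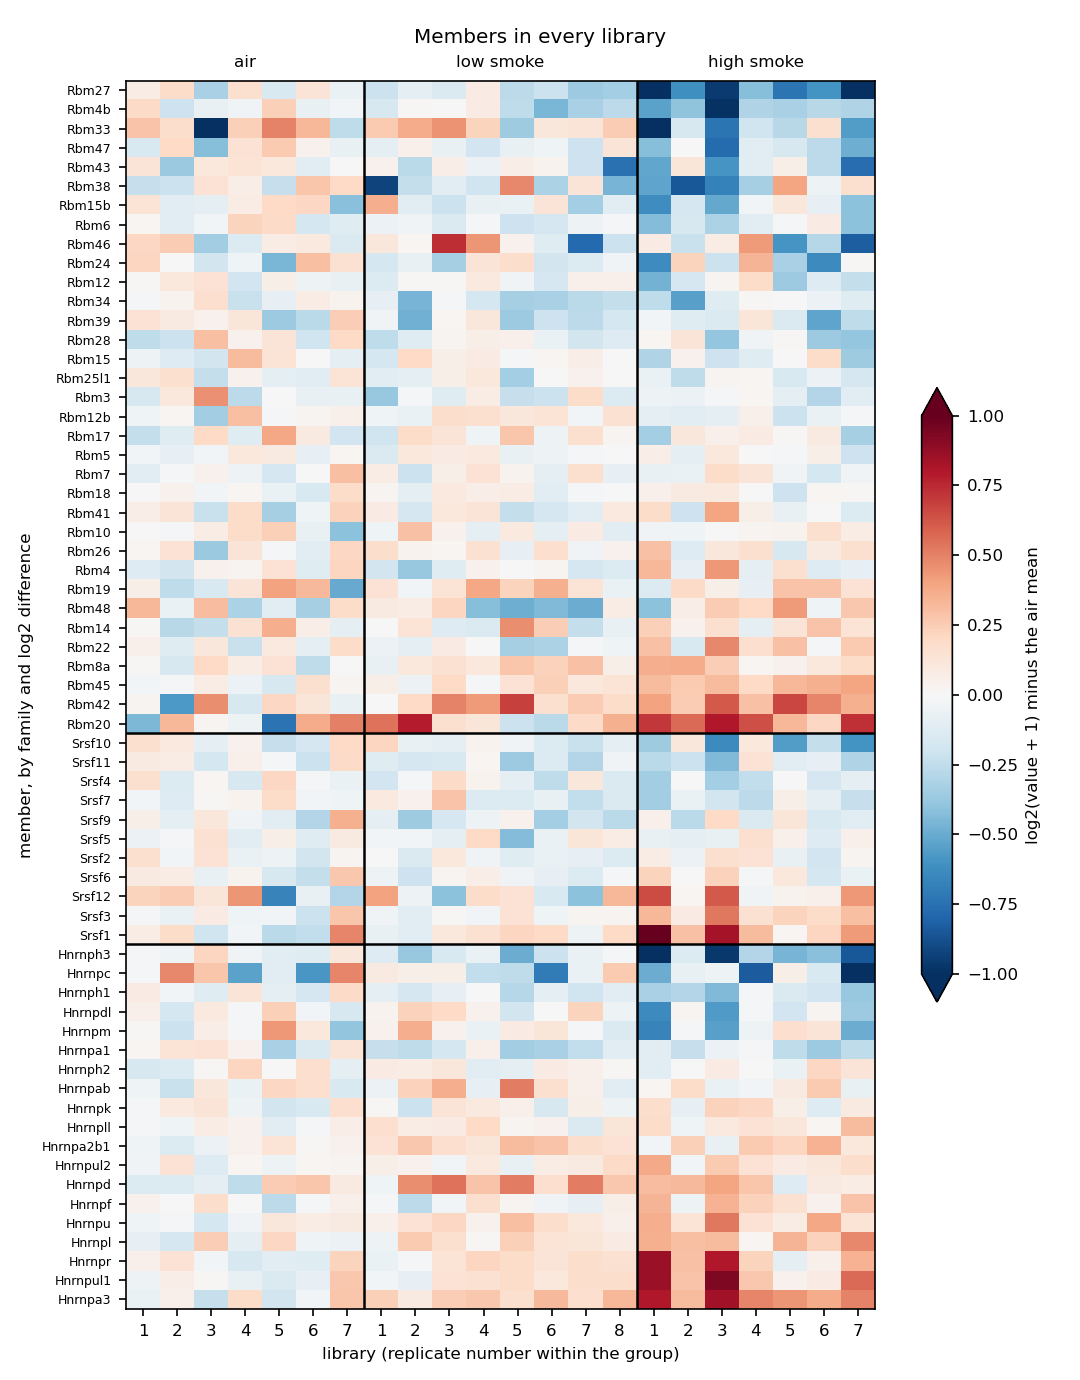
Each member tested (rows, by family and then by log2 difference) in each library (columns), coloured by log2(value + 1) minus the air mean and capped at 1 in either direction. Among the high smoke columns, Hnrnpul1, Srsf1 and Hnrnph3 are deepest in replicates 1, 3 and 7, and Rbm42 is deepest in replicate 5. Rbm45 and Hnrnpa3 stay red across all 7 high smoke columns.

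Scaling bears on the direction of the families. When all libraries were scaled to the same total, the median over all genes moved to -0.08. Then 5 members rose, beside 6.2% of all genes rising, and 9 fell, beside 12.5% of all genes falling. Hnrnpl, Hnrnpr, Rbm20, Rbm42 and Srsf3 no longer passed, and Hnrnpa1, Rbm6, Rbm47, Srsf10 and Srsf11 fell. With a rank-sum test in place of limma, 6 members passed, beside 5.18% of all genes. The calls for Hnrnph1, Hnrnpl, Hnrnpr, Hnrnpul1, Rbm20, Rbm42, Srsf1 and Srsf3 ended. With only the 2 groups fitted, 4 members rose and 3 fell, beside 866 rising and 485 falling of 14414 genes. That fit ended the calls for Hnrnph1, Hnrnpr, Hnrnpu, Rbm20, Rbm42, Srsf1 and Srsf3.

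Ratios between related members cancel library scaling, so 25 pairs of close relatives, listed after the values were seen, were compared within each library. Each difference of log2 ratios was tested with an exact two-sided permutation test over libraries, adjusted by Benjamini-Hochberg over the 25 pairs, some of which share a member. The smallest p these designs allow is 0.000583 for high smoke against air and 0.000155 for the comparisons with low smoke. A ratio shows only that a pair changed unequally, not which member moved. In high smoke against air 10 of 25 pairs passed. All of these but Hnrnpd to Hnrnpdl hold a member already called in the same libraries, so they are not independent of those calls. No other gene pairs were tested, so the count has no background and is not read as particular to these families.

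The ratio of Hnrnpa1 to Hnrnpa3 was lower in both smoke groups than in air. It ran from -1.26 to -0.74 in air, -1.76 to -1.33 in low smoke and -2.02 to -1.63 in high smoke on the log2 scale. Neither smoke group overlapped air, which was not so for either gene alone in low smoke. The difference from air was -0.72 ± 0.09 (SE) in high smoke, with an exact permutation p of 0.000583 and an adjusted p of 0.00728. In low smoke it was -0.43 ± 0.09, with an exact permutation p of 0.000311 and an adjusted p of 0.00777, and 8 of 8 low smoke libraries lay below all of air. Between high and low smoke it was -0.29 ± 0.07, with an adjusted p of 0.0168 (exact permutation), and 5 of 7 high smoke libraries lay below all of low smoke. Of the 8 Hnrnpa1 values low enough to check, 0 were whole reads, so its level may hold shared reads. All Hnrnpa3 values lay above the check's limit of 2000 reads. Its lowest and highest, 4006.43 and 8686.48 read equivalents, were not whole, so its level may hold shared reads too.

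The ratio of Rbm26 to Rbm27 ran from 1.66 to 2.17 in air, 1.97 to 2.29 in low smoke and 2.39 to 3.32 in high smoke. All 7 high smoke libraries lay above all air and all low smoke libraries. The difference from air was 0.89 ± 0.16 in high smoke, with an adjusted p of 0.00728, and 0.25 ± 0.08 in low smoke, with an adjusted p of 0.0492 (exact permutation). When 1 library at a time was left out, the low smoke call held in 10 of 22 tests, with an adjusted p of up to 0.0971, and the high smoke call in 22 of 22. Each test uses only the 2 groups compared, so leaving out a library of the third group could not change it. The 22 thus include fixed passes, 7 for the low smoke call and 8 for the high smoke call. Without high smoke replicates 1, 3 and 7 the high smoke difference was 0.58, and that of Hnrnpa1 to Hnrnpa3 was -0.62, each with an exact permutation p of 0.00303 and an adjusted p of 0.0379. The other 8 pairs did not pass without those libraries, where 0.00303 is the smallest p that 4 against 7 libraries allow.

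Within the F/H type, Hnrnph3 to Hnrnpf differed by -0.78 ± 0.19, Hnrnph3 to Hnrnph2 by -0.63 ± 0.16, Hnrnph1 to Hnrnpf by -0.45 ± 0.11 and Hnrnph1 to Hnrnph3 by 0.34 ± 0.12 in high smoke against air. Their adjusted p-values were 0.00971, 0.0146, 0.0146 and 0.0408 (exact permutation). Among SR proteins, Srsf1 to Srsf9 differed by 0.49 ± 0.14 and Srsf3 to Srsf7 by 0.42 ± 0.11, with adjusted p-values of 0.02 and 0.0146. The last pairs to pass were Rbm4 to Rbm4b at 0.52 ± 0.19, with the uncertainty on shared reads given above, and Hnrnpd to its paralog Hnrnpdl at 0.44 ± 0.16. Their adjusted p-values were 0.0146 and 0.0389 (exact permutation). In 9 of 45 members that could be checked, Rbm4, Rbm4b, Srsf5, Srsf7 and Hnrnpc among them, at most 2 of 22 values were whole reads, and those levels may hold shared reads. Hnrnph1, Hnrnpu and Srsf3 were too high for the check. Their lowest values of 2015.82, 5763.17 and 3532.09 read equivalents were not whole, so their levels may hold shared reads too.

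**Figure D4:**
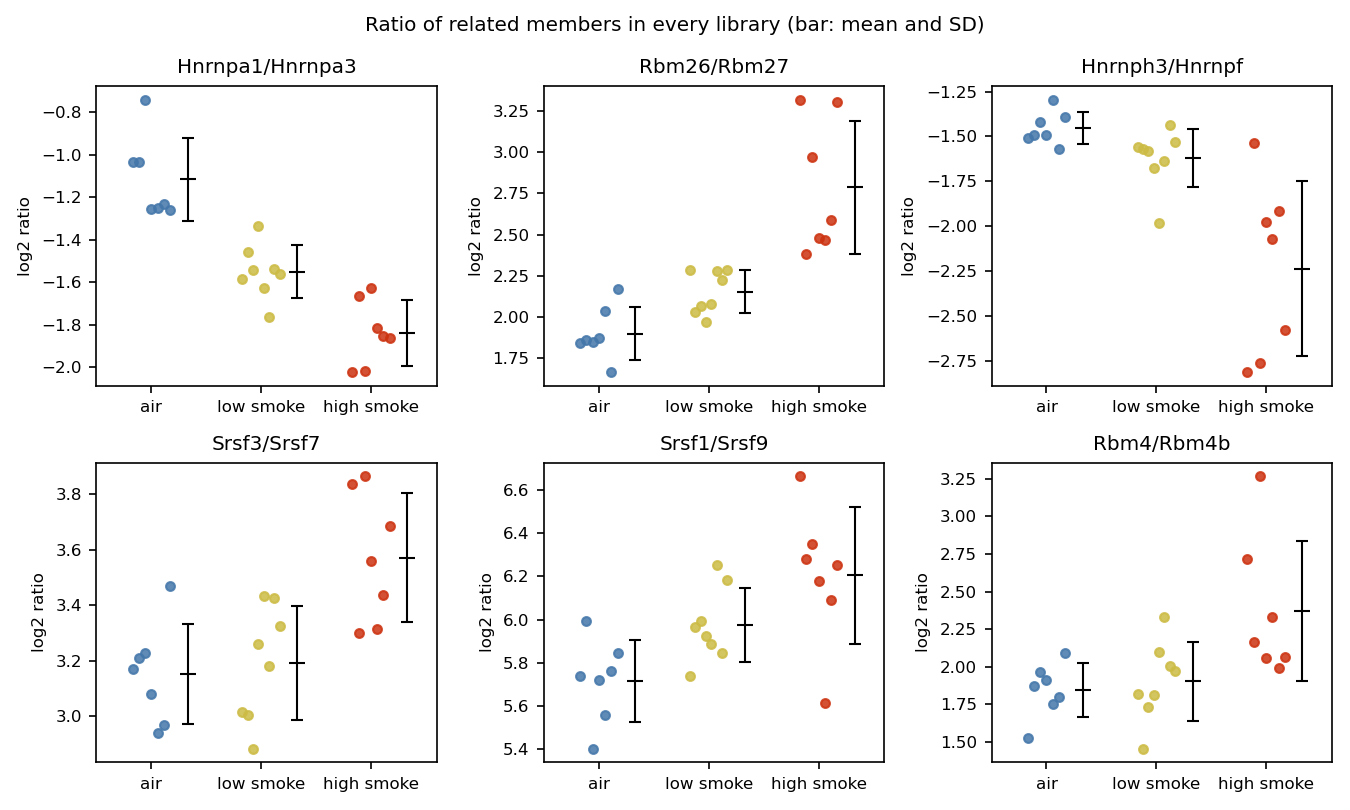
Log2 ratio of related members (y axis, not starting at 0) in every library of air (n = 7), low smoke (n = 8) and high smoke (n = 7), with bars at the mean and SD. The ratio of Hnrnpa1 to Hnrnpa3 is below all air points in both smoke groups, and that of Rbm26 to Rbm27 is above all air points in high smoke.

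In low smoke against air the third pair past the threshold was Hnrnpa1 to Hnrnpa2b1, at -0.41 ± 0.11 with an adjusted p of 0.0492 (exact permutation), where 3 of 8 libraries lay below all of air. It held in 9 of 22 tests with 1 library left out, with an adjusted p of up to 0.0971. The 7 tests without a high smoke library were fixed passes. In high smoke against low smoke 6 pairs passed. These were Rbm26 to Rbm27 at 0.64, Hnrnph1 to Hnrnpf at -0.34, Hnrnpa1 to Hnrnpa3 at -0.29, Hnrnph3 to Hnrnpf at -0.61, Srsf3 to Srsf7 at 0.38 and Hnrnpa2b1 to Hnrnpa3 at -0.36. Without high smoke replicates 1, 3 and 7 none of the 6 passed: the ratio of Rbm26 to Rbm27 was at 0.33 with an adjusted p of 0.101, and the other 5 had adjusted p-values of 0.269 or more (exact permutation). With 4 against 8 libraries, even the smallest possible p stays above 0.05 once adjusted over 25 pairs, unless several pairs reach it. That test can therefore hardly call a pair. All 4 high smoke libraries left lay above all of low smoke for Rbm26 to Rbm27. With 1 library left out, Hnrnpa2b1 to Hnrnpa3 held in 13, Hnrnph3 to Hnrnpf in 14 and Srsf3 to Srsf7 in 15 of 22 tests, and the other 3 in 22 of 22. For all 6 pairs, the 7 tests without an air library were fixed passes.

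The partners of these families moved in both directions in high smoke, again beside 9.21% of all genes rising and 7.05% falling. Of 19 SR-like proteins and SR kinases tested, 0 rose and 3 fell, with a median of -0.13. The 3 were Dyrk1a, a kinase of splicing factors, at -0.47 ± 0.10 (adjusted p = 0.00369), Luc7l2, a partner of the snRNP that recognizes 5′ splice sites, at -0.34 ± 0.09 (adjusted p = 0.0113), and Srpk1, the kinase that loads phosphate onto SR proteins, at -0.35 ± 0.09 (adjusted p = 0.0138). Of 37 other splicing regulators, 4 rose and 8 fell, with a median of -0.07. Rbmx2, a relative of a yeast spliceosomal protein, rose by 1.02 ± 0.16, from 266 ± 66.5 to 549 ± 165 (adjusted p = 0.000387), and Rbpms, a smooth muscle splicing factor, by 0.35 ± 0.06 (adjusted p = 0.00128). Tial1, which binds U-rich RNA next to 5′ splice sites, fell by 0.52 ± 0.10 (adjusted p = 0.00115), and Mbnl1, which directs splicing in muscle differentiation, by 0.72 ± 0.17 (adjusted p = 0.00529).

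Of 41 snRNP and SF3 proteins, 3 rose and 5 fell, with a median of -0.03. Snrnp70, the RNA-binding protein of the snRNP at 5′ splice sites, rose by 0.41 ± 0.09 (adjusted p = 0.00409). Sf3b1, which clamps the branch site, fell by 0.25 ± 0.06 (adjusted p = 0.00483), and Snrnp200, the helicase that unwinds the spliceosome for activation, by 0.21 ± 0.06 (adjusted p = 0.0248). Of 14 splicing helicases, 0 rose and 4 fell: Ddx46 by 0.27 ± 0.06, Dhx9 by 0.27 ± 0.07, Dhx15 by 0.22 ± 0.06 and Ddx5 by 0.29 ± 0.09. Rbm8a, a member of the Rbm set and a core protein of the exon junction complex, was at 267 ± 29.5 in air and 304 ± 30.6 in high smoke, a log2 difference of 0.19 with an adjusted p of 0.111. In low smoke against air 0 genes of these 4 lists passed.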

How the data were processed

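Lung RNA libraries from 22 rats were grouped by the treatment in their labels, as air, low smoke and high smoke. The authors deposited 1 table of signal values, which are gene counts normalized per library, with coordinates in the file. STAR 2.7.3a, Partek, DESeq2 and the rat build rn6 are named per the submitters' processing notes, which give no role for each. Whole reads could not be recovered: 80.9% to 82.9% of values under 200 reads per library lay within 0.02 reads of a whole number, so no count model was used. Why the remainder were fractional was not tested. Intervals for counting error were not computed, and depth limits low genes most.

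Values were taken as log2(value + 1), which understates changes of low genes. Genes with a mean of at least 10 were fitted with limma 3.58.1 in R 4.3.3 (trend on, robust off) with the 3 groups in 1 model. Tests were two-sided and adjusted by Benjamini-Hochberg over 14414 genes at 0.05. The fit, the rank-sum test and the permutation test were tested on simulated data. Each library is from 1 rat, and the labels give no batch.

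The members, the gene lists, the pairs and the tests were chosen with earlier results of these data known. Named genes are, per family, up to 5 rising and 5 falling members with the smallest p in high smoke against air, or the 3 smallest p if fewer than 3 passed. They also include the 3 smallest p of each other comparison, the 2 highest means per family and a set of well-known members. Up to 2 rising and 2 falling genes were named from each partner list, and partner lists with fewer than 5 called genes are named in full, a choice made after their values were seen. Some genes that this rule names are not reported here. Relatives named in ratios, and members named for an unadjusted p, were added after their values were seen. Rbm25, in that set, is not analysed here. Alternatives were other pseudocounts, filters and scalings, array weights, robust shrinkage, a fit of 2 groups, a rank-sum test and leaving out each of 22 libraries, and, added after the values were seen, leaving out the libraries that stood apart. Promoter windows are from RefSeq (GRCr8). Coordinates of the table and of these windows are of different builds and were not combined. Levels are not compared between genes, because transcript length was not used.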

Additional observations from a re-analysis of the deposited data

Results flagged for a closer look

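In 126 groups of 7 or 8 libraries, for named members and for ratios that passed in high smoke against air, 4 held a library whose gap to its neighbour was a large share of the group's range. Chance flags about 1 in 20 groups, which would be 6.3 here, so the number is not above chance.

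High smoke replicate 6 had an Rbm3 count of 1024, below the 1170 to 1276 of the other high smoke libraries. High smoke replicate 3 had an Rbm4b count of 59.4, below the 81.4 to 97.8 of the others. Air replicate 3 had a log2 ratio of Hnrnph1 to Hnrnph3 of 1.76, below the 2.06 to 2.26 of the other air libraries, and is the library that stood apart on the second principal component. Low smoke replicate 5 had a log2 ratio of Hnrnph3 to Hnrnpf of -1.98, below the -1.68 to -1.44 of the other low smoke libraries.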

How the results depend on the processing

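Against air, the main analysis had 3 Rbm members rising and 2 falling in high smoke, 2 and 0 Srsf members, and 5 and 2 Hnrnp members. With libraries at the same total these were 1 and 4 (Rbm), 1 and 2 (Srsf), and 3 rising (Hnrnp). The Hnrnp members falling were then Hnrnpa1, Hnrnph1 and Hnrnph3. With the same upper quartile, Rbm47 and 1 Srsf member, Srsf10, fell in addition. With only the 2 groups compared in the fit, 1 Rbm, 0 Srsf and 3 Hnrnp members rose and 1 Hnrnp member fell. With a rank-sum test, 1 Rbm, 0 Srsf and 2 Hnrnp members rose and 1 Hnrnp member fell. Rbm27 and Rbm4b fell as well in these 2 settings, which gave 3 falling members each. Without high smoke replicates 1, 3 and 7, with or without air replicate 3, 0 Rbm, 0 Srsf and 2 Hnrnp members rose. In that case 1 Rbm and 0 Hnrnp members fell. Against low smoke, 0 of 4 calls were then left, beside 0 of all genes rising and 0 falling. The causes were not tested, but fewer libraries were used in the last case.

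At the same total the median log2 differences were -0.16 (Rbm) and 0.043 (Hnrnp) in high smoke against air, -0.059 (Rbm) in low smoke against air and -0.021 (Hnrnp) in high against low smoke. Without the 3 high smoke libraries the Rbm median was -0.045, and with air replicate 3 also left out the medians were -0.030 (Rbm) and 0.072 (Hnrnp).

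Signs reversed for small differences that did not pass: Rbm10 at -0.044, Srsf2 at -0.064 and Srsf6 at -0.032 with the same total, Srsf2 at -0.00877 with the same upper quartile, Srsf2 at -3.43e-05 and Srsf5 at 0.016 with array weights, and Rbm3 at 0.016, Rbm5 at 0.021 and Srsf6 at -0.038 with the rank-sum test. Without the 3 libraries Srsf2 was at -0.046 and Srsf6 at -0.021, and with air replicate 3 also out Srsf2 was at -0.022, Srsf5 at 0.021 and Srsf6 at -0.033.

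Leaving out 1 library at a time gave 1 to 3 Rbm members rising and 2 to 4 falling, 1 to 2 Srsf members rising and 0 to 2 falling, 3 to 7 Hnrnp members rising, and 1 to 10 members called in high against low smoke. The 1 and 10 without high smoke replicates 7 and 6 stood beside 21 and 859 rising genes and 8 and 716 falling genes. The Hnrnp median in high against low smoke ran from -0.00031 to 0.057, Rbm10 from -0.035 to 0.072, Rbm5 from -0.032 to 0.020, Srsf2 from -0.019 to 0.046 and Srsf5 from -0.046 to 0.0082. Of the 10 ratios past the threshold in high smoke against air, 8 passed in 22 of 22 such tests, and Hnrnpd to Hnrnpdl and Hnrnph1 to Hnrnph3 in 14 of 22. The 8 tests without a low smoke library could not change these ratios and are fixed passes. No paired analysis was possible because the labels number every rat once, and no number is shared between groups. Low depth limits Rbm11 and Rbm44, which were not tested.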
